A study of Mus musculus with 8 samples.

Results

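The genes described here are 35 genes of glycolysis, gluconeogenesis and the response to low oxygen, among 20639 genes that could be named through a probe on the arrays. They were taken by their known roles and found through the transcript accession of each probe, with the brightest probe standing for the gene. They comprised 3 hexokinases, 7 enzymes or isoforms of upper glycolysis, 7 of lower glycolysis, 3 genes of lactate handling, 3 of gluconeogenesis, 4 regulators of flux, 2 glucose transporters, 3 genes of oxygen sensing and 3 induced by hypoxia. All 35 had a probe, and 34 were well above background on at least 3 of the 8 arrays and entered the model fits with 13545 genes. The gene left out was Fbp2, the muscle form of fructose-1,6-bisphosphatase, which was not well above background on any array.

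Glycolysis splits glucose into pyruvate in the cytosol, and lactate dehydrogenase can turn the pyruvate into lactate. Gluconeogenesis runs the same route backwards with its own enzymes at the irreversible steps, fructose-1,6-bisphosphatase among them. When oxygen is low, the transcription factor HIF-1 escapes degradation and raises most glycolytic genes, and marrow stem cells are known for their reliance on glycolysis.

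RNA came from marrow cells that lack lineage markers and carry c-Kit and Sca-1 (LSK), the fraction with the stem and early progenitor cells, sorted from C57BL/6 transplant recipients. Donor stem cells (CD45.2+, Cre-ERT with wild-type or floxed Ezh2) had received a retrovirus, either empty or carrying RUNX1S291fs, a truncated RUNX1 found in myelodysplastic syndrome (MDS), and went into lethally irradiated mice beside wild-type CD45.1+ marrow before Ezh2, the H3K27 methyltransferase, was deleted. At month 4 there was 1 array each of CD45.2+ cells that were WT (empty vector, Ezh2 wild type), Ezh2Δ/Δ (empty vector), RUNX1S291fs (Ezh2 wild type) and RUNX1S291fs/Ezh2Δ/Δ, called the double mutant below, each from cells pooled over 2 to 4 mice. Further arrays held double-mutant CD45.2+ cells of 1 moribund mouse with MDS and of 1 with MDS and myeloid leukemia (MDS/ML), and wild-type CD45.1+ cells sorted at month 4 from the marrow of RUNX1S291fs mice and of double-mutant mice.

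Each group had 1 array, so a difference between groups had no replicate check. Tests came from limma, which modelled all 8 arrays with terms for Ezh2 deletion, RUNX1S291fs and the moribund stage, left 4 residual degrees of freedom, and was adjusted by Benjamini-Hochberg over all 13545 genes at a threshold of 0.05. Arrays with the same lesion served as its replicates there, and both moribund arrays were single mice, so the small number of arrays limits the precision. A level below is the log2 signal minus the 75th percentile of its array, a difference is between such log2 levels, and a member counts as higher or lower between arrays at a 2-fold difference. Between 43.9% and 55.3% of probes were well above background per array and no probe was saturated. WT, double mutant and the MDS mouse shared 1 slide, the MDS/ML array lay on another, and the other 4 arrays on the remaining slide. Ezh2 lay between 3.10 and 4.01 on all arrays, and since no source used here says whether its probe lies in the deleted part, this did not check the deletion. Xist was not well above background and Y-linked Ddx3y was at 1.74 and 1.57 on the Ezh2Δ/Δ and MDS/ML arrays, with the reverse on the other 6, so donor sex differed with those groups, and the members Pgk1 and Pdk3 are X-linked. Kit, which defines the sort, lay between 4.06 and 5.11 on all arrays, whereas Ly6a, which encodes Sca-1, was at 0.53 and 1.18 on the MDS and MDS/ML arrays against 3.17 to 4.14 on the other 6.

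On each moribund array most of the 33 measured members lay below their month 4 double-mutant level, at differences of any size. The median of all genes lay below 0 in both comparisons as well. Fbp1, the liver-type fructose-1,6-bisphosphatase, Ldhb, the lactate dehydrogenase subunit of oxidative tissues, and Hk3, a hexokinase of myeloid cells, fell with the moribund stage in the model. On the MDS array 19 of 33 measured members were lower than on the double mutant, against 20.3% of all genes, and 2 were higher, against 10.6%. On the MDS/ML array 15 of 33 were lower, against 15.2% of all genes, and 3 were higher, against 9.77%. The median difference over the members was -1.17 and -0.91, beside -0.23 and -0.11 over all genes. Lower on both arrays were 14 members: Hk2, Hk3, Gpi1, Pfkp, Tpi1, Gapdh, Pgam1, Eno1, Pkm, Ldhb, Fbp1, Pfkfb4, Pdk1 and Vegfa. Both pairs share the double-mutant array, on which 13 of 34 members had their highest level of the 8, against 14.2% of genes. Against WT, which is free of that array, 12 of 34 members were lower on the MDS array (17.6% of genes) and 2 higher (13.5%), and 9 of 34 were lower on the MDS/ML array (11.6% of genes) and 2 higher (9.06%). Below all 3 wild-type arrays lay 26 of 34 members on the MDS array, against 45.3% of genes, and 19 on the MDS/ML array, against 37.1%. Levels of both moribund arrays lay below those of the other 6 for 13 of 34 members, against 17.4% of genes. Of these, Eno2 was not well above background on either moribund array. Among genes well above background on all 8 arrays it was 12 of 32 members, against 16.9% of genes.

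In the model, 3 of 34 members passed for the moribund stage, all lower, against 1.57% of genes lower and 0.273% higher. The stage effect was negative for 30 of 34 members with a median of -0.87, beside 58.9% of all genes and a median of -0.13. This call rested on the double-mutant array. Without it, none of the 13545 genes passed by limma (1196 had an unadjusted p under 0.05), and 4 members had an unadjusted p under 0.05, all lower. The stage effect was then negative for 24 of 34 members with a median of -0.49, beside 49.4% of all genes and a median of 0.01. In that fit only the moribund arrays carry both lesions. Its stage effect therefore cannot be told apart from a departure from the sum of both lesions. Without WT, or without either CD45.1+ array, 1 member passed, Fbp1. The month 4 double mutant was higher than WT for 10 of 34 members, against 10.6% of genes, and lower for 3, against 7.9%, and both arrays shared a slide. The median member was 0.59 higher, beside 0.10 for all genes. Against the wild-type CD45.1+ cells sorted from double-mutant mice, on another slide, 7 of 34 were higher in the double mutant (9.78% of genes) and 3 lower (9.41%). There the median member was 0.10 higher, beside 0.07 for all genes. The CD45.1+ arrays beside RUNX1S291fs and the double mutant were themselves above WT, with member medians of 0.43 and 0.27. Over all genes these medians were 0.09 and 0.05. The double mutant lay above all 3 wild-type arrays for 14 of 34 members, against 25.5% of genes. The members higher than in WT were Hk3, Aldoa, Gapdh, Pgam1, Eno1, Ldhb, Slc16a3, Fbp1, Slc2a3 and Vegfa, and those lower were Aldoc, Eno3 and Egln1. Of the 10, Hk3, Gapdh, Pgam1, Eno1, Ldhb, Fbp1 and Vegfa were also among the 14 lower on both moribund arrays. Both lists use the same double-mutant array, so a gene high on that array tends to enter both. No share of all genes is given for the 14 or for this overlap.

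**Figure D1:**
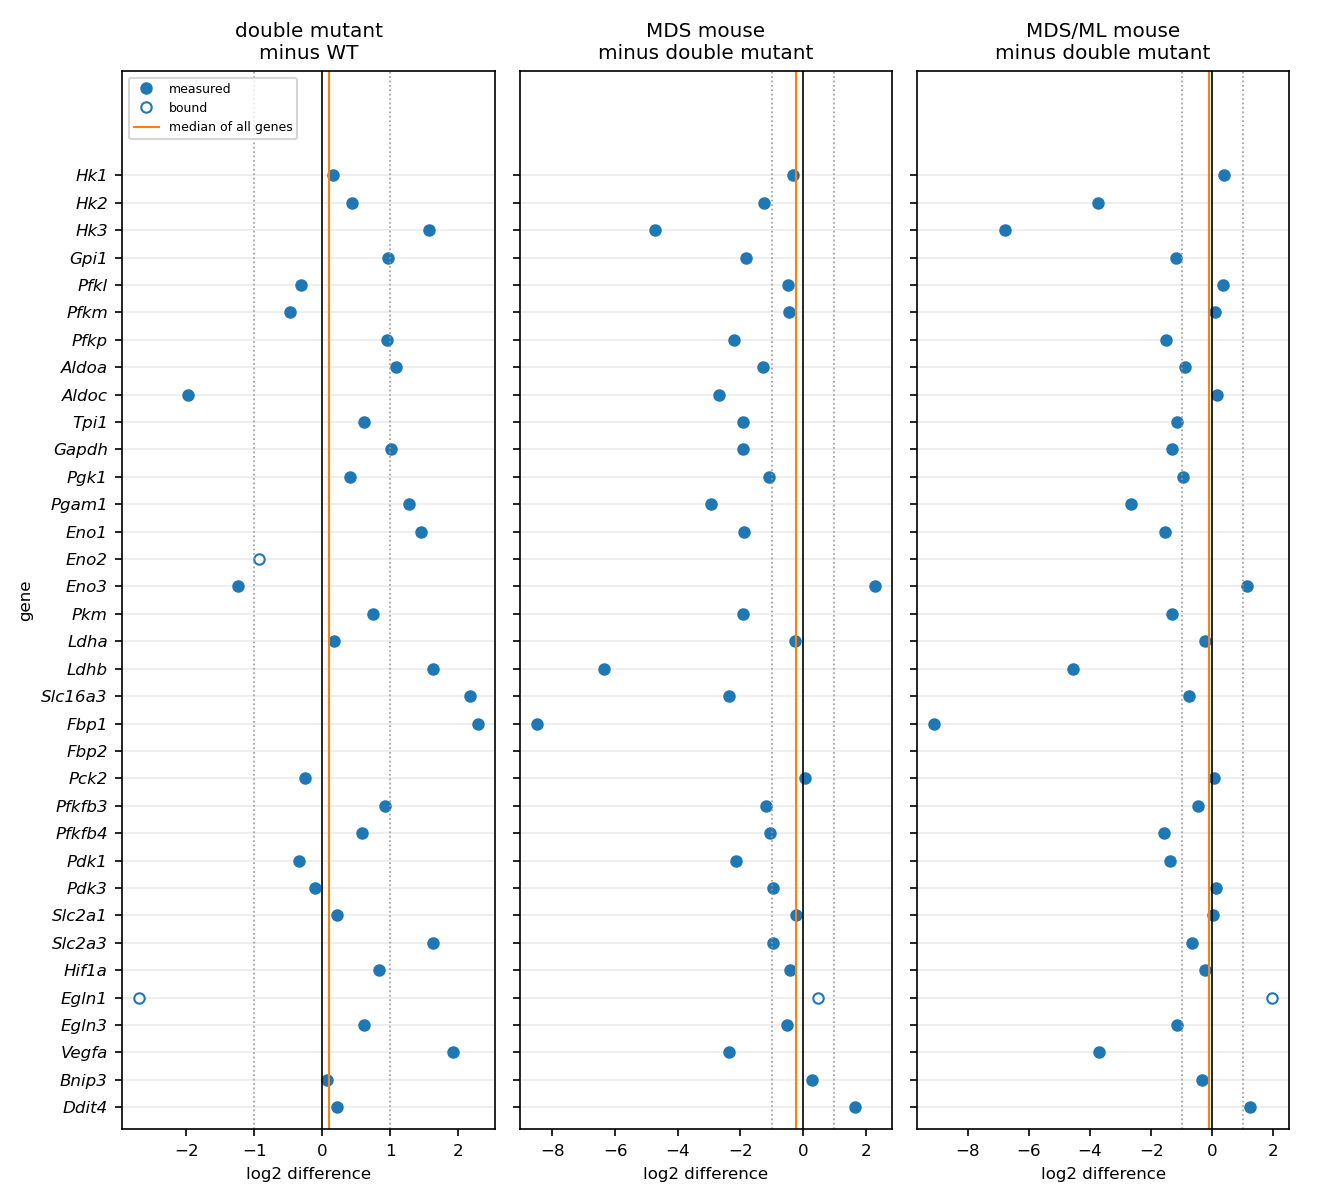
Log2 difference of each member, in order of its role, for the double mutant against WT and for each moribund mouse against the double mutant. Filled points were measured on both arrays and open points are bounds, dotted lines mark a 2-fold difference and the orange line the median of all genes. Most points lie right of 0 in the left panel and left of 0 in the others, with Fbp1 at -8.50 and -9.11 against the double mutant.

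Single lesions showed few differences. The Ezh2Δ/Δ array was higher than WT for 1 of 34 members, against 7.81% of genes, and lower for 2, against 3.81%. The RUNX1S291fs array was higher for 2 of 34, against 8.57%, and lower for 2, against 5.76%. Against CD45.1+ cells sorted from RUNX1S291fs mice, on the same slide, the RUNX1S291fs array was higher for 3 of 34 (8.73%) and lower for 3 (12.4%). The comparisons of Ezh2Δ/Δ, RUNX1S291fs, double-mutant and moribund cells with WT all use the same WT array. No member passed for Ezh2 deletion, for which no gene passed by limma (321 genes and 1 member had an unadjusted p under 0.05). No member passed for RUNX1S291fs, for which 2 genes passed, 0.0148% of those tested (806 genes and 2 members had an unadjusted p under 0.05). A further fit asked whether the double mutant departed from the sum of both lesions, and no gene passed by limma (886 genes and 2 members had an unadjusted p under 0.05). The wild-type arrays set the scale of such differences: between the CD45.1+ array beside RUNX1S291fs and WT, 3 of 34 members were higher (11.3% of genes) and 2 lower (6.64% of genes). Between the CD45.1+ array beside the double mutant and WT, 3 were higher (4.58% of genes) and 1 lower (2.26% of genes).

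**Figure D2:**
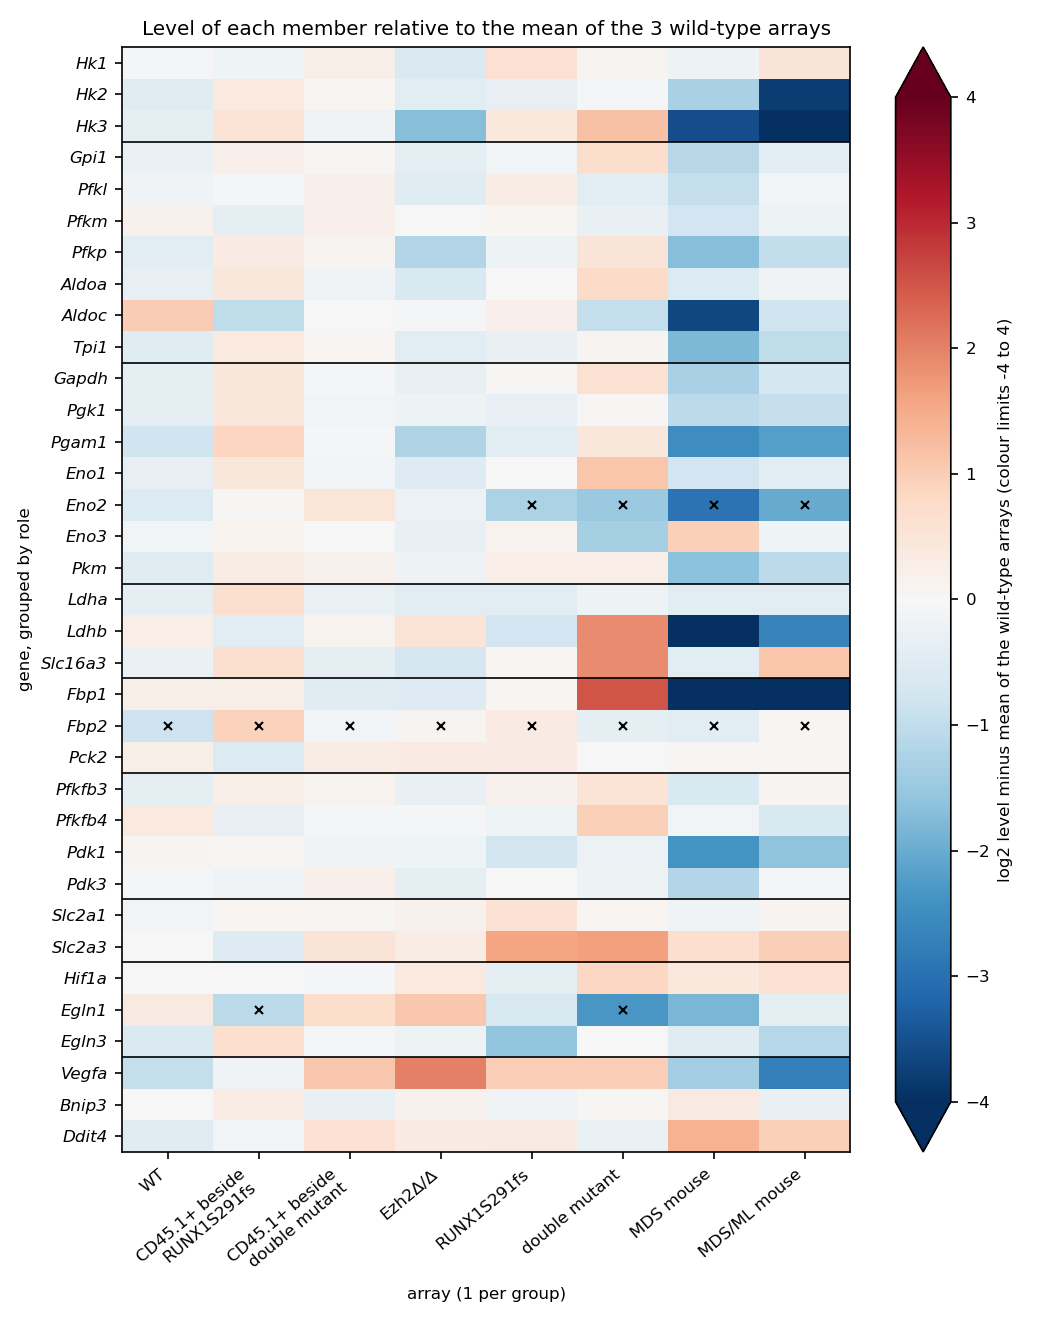
Level of each of the 35 members on each array minus its mean over the 3 wild-type arrays (left columns), in log2, with horizontal lines between roles and crosses where the probe was not well above background. Hk3, Ldhb and Fbp1 are dark blue on both moribund arrays at the right, and Fbp1, Ldhb and Slc16a3 are red on the double-mutant array.

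The start regions of 6 of these genes are shown because they set the 3 genes that fell beside 3 other glycolytic genes. These are Hk2 and Pgam1, which were lower on both moribund arrays, and Ldha. By the probe used, Ldha differed from the double mutant by -0.25 on the MDS and -0.22 on the MDS/ML array. Its further probes did not all share that sign. The regions come from RefSeq (GRCm38.p6) and run from 250 bases before to 50 bases after an annotated start, 5′ to 3′ on the gene's strand. Capitals mark ACGTG, 1 form of the core that HIF-1 binds, or its reverse complement CACGT, and a CACGTG holds both. The other form, GCGTG or CACGC, is not in capitals. The regions are chr13:62888233-62888532 (minus strand) for Fbp1, chr6:142507908-142508207 (minus) for Ldhb, chr13:55021336-55021635 (minus) for Hk3, chr6:82774405-82774704 (minus) for Hk2, chr19:41911621-41911920 (plus) for Pgam1 and chr7:46845554-46845853 (plus) for Ldha.
Fbp1: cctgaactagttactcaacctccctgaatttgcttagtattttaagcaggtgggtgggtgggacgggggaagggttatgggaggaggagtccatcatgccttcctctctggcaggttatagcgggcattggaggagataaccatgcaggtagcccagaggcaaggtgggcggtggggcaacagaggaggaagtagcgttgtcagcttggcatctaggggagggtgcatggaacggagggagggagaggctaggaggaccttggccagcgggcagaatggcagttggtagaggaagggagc
Ldhb: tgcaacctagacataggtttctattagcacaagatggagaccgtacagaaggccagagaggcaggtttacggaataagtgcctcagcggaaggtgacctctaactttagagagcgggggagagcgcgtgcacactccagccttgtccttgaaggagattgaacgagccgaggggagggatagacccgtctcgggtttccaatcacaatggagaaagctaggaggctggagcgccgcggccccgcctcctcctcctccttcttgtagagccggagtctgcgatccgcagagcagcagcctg
Hk3: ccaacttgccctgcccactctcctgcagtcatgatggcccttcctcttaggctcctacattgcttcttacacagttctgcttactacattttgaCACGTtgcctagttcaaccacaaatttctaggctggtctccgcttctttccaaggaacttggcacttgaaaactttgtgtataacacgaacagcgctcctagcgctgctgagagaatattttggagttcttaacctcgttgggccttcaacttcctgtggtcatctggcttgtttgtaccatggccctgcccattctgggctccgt
Hk2: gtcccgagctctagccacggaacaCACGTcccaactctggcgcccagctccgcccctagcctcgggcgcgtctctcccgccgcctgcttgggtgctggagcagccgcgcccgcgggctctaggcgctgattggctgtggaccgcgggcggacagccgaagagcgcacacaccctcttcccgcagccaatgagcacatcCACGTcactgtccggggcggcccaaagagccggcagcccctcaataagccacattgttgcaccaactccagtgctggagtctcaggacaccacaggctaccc
Pgam1: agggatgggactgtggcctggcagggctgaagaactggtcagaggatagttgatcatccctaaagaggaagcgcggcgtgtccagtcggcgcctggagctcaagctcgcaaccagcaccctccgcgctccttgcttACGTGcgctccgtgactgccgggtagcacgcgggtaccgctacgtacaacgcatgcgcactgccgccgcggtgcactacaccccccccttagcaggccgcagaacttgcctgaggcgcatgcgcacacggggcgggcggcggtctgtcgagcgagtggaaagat
Ldha: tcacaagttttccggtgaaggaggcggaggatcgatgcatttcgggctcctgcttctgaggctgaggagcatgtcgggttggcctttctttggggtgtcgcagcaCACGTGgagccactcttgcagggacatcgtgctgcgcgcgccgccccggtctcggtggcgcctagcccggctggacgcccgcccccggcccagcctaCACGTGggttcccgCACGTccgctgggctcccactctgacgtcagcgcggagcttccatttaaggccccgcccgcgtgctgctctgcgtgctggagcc
The marked letters, ACGTG or CACGT, occur 0 times in the Fbp1 and Ldhb windows, 1 time in those of Hk3 and Pgam1, 2 times in that of Hk2 and 5 times in that of Ldha, where 2 pairs of matches overlap within a CACGTG. A second annotated start of Ldha, whose window is not shown, has 0. GCGTG or CACGC occurs 1 time in the Ldhb window, 2 times in those of Pgam1 and Ldha and 0 times in those of Fbp1, Hk3 and Hk2. Of the 34 members with a start region in the table (Slc2a3 had none), 22 (64.7%) held ACGTG in at least 1 window, against 21.8% of 27025 genes, and 21 (61.8%) held GCGTG, against 35.2%. Counted by window ACGTG was in 25 of 48 (52.1%) against 19.6% of 32851. Both forms contain a CG, and the median window held 17.5 CG pairs among the members and 7 over all genes, so base composition differed as well. A match describes these letters only.

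Hexokinases phosphorylate glucose as it enters the cell. Hk3 was at 2.89 on WT, 3.82 and 3.15 on the CD45.1+ arrays beside RUNX1S291fs and double-mutant cells, 1.57 on Ezh2Δ/Δ, 3.70 on RUNX1S291fs, 4.46 on the double mutant, -0.26 on the MDS and -2.33 on the MDS/ML array. Both moribund levels lay below the other 6, and the double mutant was the highest. In the model Hk3 fell by 5.01 with the stage (SE 0.92, limma adjusted p = 0.0485), a call that held in 8 of 17 alternatives and was lost with slide as a block (limma adjusted p = 0.149). It was also lost when WT, the double mutant, the MDS/ML array or either CD45.1+ array was left out, with limma adjusted p from 0.0554 to 0.478, the highest without the double mutant. Quantile normalization (limma adjusted p = 0.0501), scaling to the median of detected probes (0.0538) and no filter on dim genes (0.0709) lost it too. The 17 alternatives overlap and are not independent checks. Hk2, the inducible isoform, was at 2.13 on WT, 2.99 and 2.70 on the CD45.1+ arrays, 2.17 on Ezh2Δ/Δ, 2.28 on RUNX1S291fs, 2.57 on the double mutant, 1.31 on the MDS and -1.17 on the MDS/ML array. The month 4 arrays lay close together and the MDS/ML array stood far below them, 13.4-fold under the double mutant. Its stage effect was -2.28 (SE 0.84, limma adjusted p = 0.284). It ranged from -3.53 without the MDS array, the 1 of 17 alternatives in which it passed (limma adjusted p = 0.0495), to -0.98 with slide as a block, and was -1.04 without the MDS/ML array. Hk1, the housekeeping isoform, had its lowest level, 5.07, on Ezh2Δ/Δ and its highest, 6.26, on RUNX1S291fs, and its probes differed in sign between arrays.

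Of the glucose transporters, Slc2a3 separated the RUNX1S291fs carriers from the other arrays and Slc2a1 did not. Slc2a3, the high-affinity transporter GLUT3, was at 3.03 on WT, 2.52 and 3.53 on the CD45.1+ arrays, 3.32 on Ezh2Δ/Δ, 4.60 on RUNX1S291fs, 4.66 on the double mutant, 3.69 on the MDS and 4.00 on the MDS/ML array. All 4 carriers lay above all 4 other arrays, which held for 3.72% of genes and for no other member. It had the smallest p of the members for RUNX1S291fs, an effect of 1.48 (SE 0.36), but did not pass (limma adjusted p = 0.306, from 0.217 to 0.761 over the alternatives). Against CD45.1+ cells sorted from RUNX1S291fs mice, run on the same slide, the RUNX1S291fs array was 2.08 higher. Slc2a1, the ubiquitous transporter GLUT1, stayed between 2.27 and 2.98, with RUNX1S291fs the highest.

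Among the genes of upper glycolysis, Aldoc, an aldolase best known from brain, was at 4.06 on WT, 2.03 and 3.01 on the CD45.1+ arrays, 2.97 on Ezh2Δ/Δ, 3.23 on RUNX1S291fs, 2.09 on the double mutant, -0.61 on the MDS and 2.23 on the MDS/ML array. WT was the highest of all, the wild-type arrays themselves spanned 2.03, and the MDS array alone stood below that range. Pfkp, the platelet form of phosphofructokinase, was at 1.04 on WT, 1.81 and 1.57 on the CD45.1+ arrays, 0.30 on Ezh2Δ/Δ, 1.25 on RUNX1S291fs, 1.99 on the double mutant, -0.22 on the MDS and 0.49 on the MDS/ML array. Its lowest levels came from the MDS and Ezh2Δ/Δ arrays, so groups overlapped. Its other isoforms, Pfkl and Pfkm, ranged from 0.91 to 2.15 and from 2.24 to 3.20, each lowest on the MDS array. Tpi1, triosephosphate isomerase, was at 5.90 on WT, 6.79 and 6.46 on the CD45.1+ arrays, 5.95 on Ezh2Δ/Δ, 6.10 on RUNX1S291fs, 6.51 on the double mutant, 4.59 on the MDS and 5.37 on the MDS/ML array. Both moribund arrays lay below the rest, and its second probe gave the same sign there (-1.57 and -0.55 against the double mutant) but -0.31 in place of 0.61 for the double mutant against WT. Gpi1, which isomerises glucose 6-phosphate, was lowest at 7.17 on the MDS array and highest on the double mutant, 0.97 above WT, and Aldoa, the main aldolase, ranged from 7.46 on Ezh2Δ/Δ to 8.83 on the double mutant. None of the 7 passed for the moribund stage, and all 7 effects were negative.

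Lower glycolysis recovers the energy of the pathway. Pgam1, phosphoglycerate mutase, was at 6.04 on WT, 7.72 and 6.78 on the CD45.1+ arrays, 5.64 on Ezh2Δ/Δ, 6.41 on RUNX1S291fs, 7.31 on the double mutant, 4.37 on the MDS and 4.65 on the MDS/ML array. Both moribund arrays were lowest, and the highest level came from wild-type cells. Its stage effect of -2.17 (SE 0.75) did not pass (limma adjusted p = 0.25). Pkm, pyruvate kinase of muscle and most proliferating cells, was at 5.54 on WT, 6.33 and 6.18 on the CD45.1+ arrays, 5.82 on Ezh2Δ/Δ, 6.28 on both RUNX1S291fs and the double mutant, 4.37 on the MDS and 4.98 on the MDS/ML array. Only the moribund arrays lay below WT, and the stage effect of -1.55 (SE 0.43) did not pass (limma adjusted p = 0.151). Gapdh, often used to normalise other genes, was at 8.74 on WT, 9.60 and 9.08 on the CD45.1+ arrays, 8.83 on Ezh2Δ/Δ, 9.19 on RUNX1S291fs, 9.74 on the double mutant, 7.83 on the MDS and 8.43 on the MDS/ML array. All 7 Gapdh probes were lower than on the double mutant, with differences of -2.24 to -1.21 on the MDS and -1.62 to -0.63 on the MDS/ML array. Eno1, the ubiquitous enolase, ranged from 5.82 on the MDS array to 7.71 on the double mutant, and Pgk1, phosphoglycerate kinase, from 5.96 on the MDS array to 7.47 on the CD45.1+ array beside RUNX1S291fs.

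The tissue-specific enolases did not follow Eno1. Eno3, the muscle form, was at 1.18 on WT, 1.41 and 1.25 on the CD45.1+ arrays, 0.99 on Ezh2Δ/Δ, 1.43 on RUNX1S291fs, -0.05 on the double mutant, 2.25 on the MDS and 1.10 on the MDS/ML array. The double mutant was the lowest and the MDS array the highest, the reverse of Eno1. Eno2, the neuronal form, was well above background on 4 arrays only, at -3.69 on WT, -3.10 and -2.65 on the CD45.1+ arrays and -3.38 on Ezh2Δ/Δ. On the RUNX1S291fs, double-mutant, MDS and MDS/ML arrays it measured -4.40, -4.61, -6.09 and -5.17, not well above background, so all 4 carriers were lower, and double mutant against WT was a bound of at least 1.90-fold lower. The RUNX1S291fs effect on it was -1.25 (SE 0.41, limma adjusted p = 0.588).

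The isoforms of lactate dehydrogenase differed in pattern. Ldhb was at 3.56 on WT, 2.85 and 3.43 on the CD45.1+ arrays, 3.83 on Ezh2Δ/Δ, 2.51 on RUNX1S291fs, 5.18 on the double mutant, -1.16 on the MDS and 0.62 on the MDS/ML array. Both moribund arrays were lowest by more than the span of the wild-type arrays, 81.3-fold and 23.6-fold below the double mutant. It fell by 4.81 with the stage (SE 0.80, limma adjusted p = 0.0343) and passed in 11 of 17 alternatives, slide as a block included (limma adjusted p = 0.0466). The call was lost when WT, the double mutant, the MDS array or either CD45.1+ array was left out, with limma adjusted p from 0.0571 to 0.398, the highest without the double mutant, and with no filter on dim genes. Ldha, the subunit that favours lactate, lay between 8.43 and 8.68 on 7 arrays and at 9.54 on the CD45.1+ array beside RUNX1S291fs. Its stage effect was -0.04 (SE 0.47, limma adjusted p = 0.984), and its 3 probes differed in sign. Slc16a3, the lactate exporter MCT4, was at 1.47 on WT, 2.38 and 1.38 on the CD45.1+ arrays, 1.08 on Ezh2Δ/Δ, 1.81 on RUNX1S291fs, 3.63 on the double mutant, 1.29 on the MDS and 2.86 on the MDS/ML array. The double mutant was the highest, 4.50-fold above WT by 1 probe and alike by its second (2.17 and 2.18 in log2), and the moribund arrays lay apart from each other.

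Gluconeogenesis rested on Fbp1. Its level was 3.24 on WT, 3.24 and 2.51 on the CD45.1+ arrays, 2.49 on Ezh2Δ/Δ, 3.09 on RUNX1S291fs, 5.52 on the double mutant, -2.98 on the MDS and -3.58 on the MDS/ML array. The 5 other month 4 arrays lay within 1 log2 of each other, the double mutant above and both moribund arrays far below, though still well above background. It fell by 7.92 with the stage (SE 0.79, limma adjusted p = 0.0115) and passed in 16 of 17 alternatives. The exception was the fit without the double mutant, where the effect was -5.86 (limma adjusted p = 0.0915). There it includes any departure from the sum of both lesions. It was 4.86-fold above WT and 3.02 in log2 above the CD45.1+ cells sorted from double-mutant mice in the double mutant, and it had the smallest p of the members for departure from the sum of both lesions, 2.95 (SE 0.77), which did not pass (limma adjusted p = 0.687). Pck2, the mitochondrial phosphoenolpyruvate carboxykinase, stayed between -1.62 and -0.75.

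**Figure D3:**
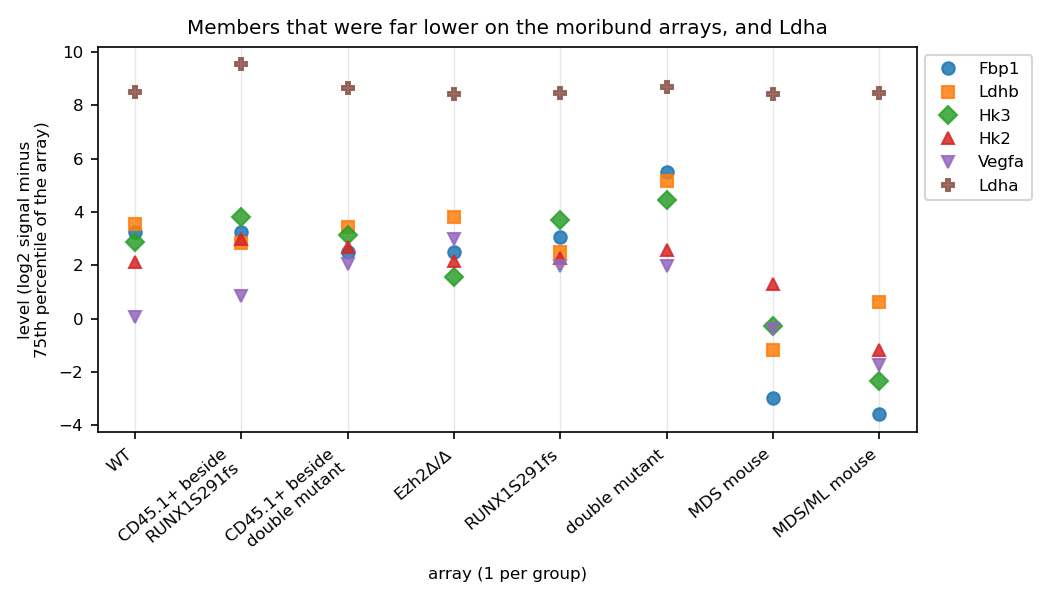
Level of Fbp1, Ldhb, Hk3, Hk2, Vegfa and Ldha on each of the 8 arrays, as log2 signal minus the array's 75th percentile, 1 point per gene and array. Fbp1 reaches 5.52 on the double mutant and -2.98 and -3.58 on the moribund arrays, while Ldha stays between 8.43 and 9.54.

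The regulators set how much sugar enters the pathway and how much pyruvate enters mitochondria. Pdk1, a kinase that shuts pyruvate dehydrogenase, was at 2.12 on WT, 2.06 and 1.88 on the CD45.1+ arrays, 1.85 on Ezh2Δ/Δ, 1.29 on RUNX1S291fs, 1.78 on the double mutant, -0.36 on the MDS and 0.40 on the MDS/ML array. All 4 carriers lay below the 4 other arrays, which held for 4.87% of genes and, among members, for Pdk1 and Eno2. Its stage effect was -1.56 (SE 0.41, limma adjusted p = 0.132). Pdk3, its X-linked relative, was at 2.66 on WT, 2.62 and 2.96 on the CD45.1+ arrays, 2.36 on Ezh2Δ/Δ, 2.74 on RUNX1S291fs, 2.55 on the double mutant, 1.58 on the MDS and 2.67 on the MDS/ML array. The MDS array alone stood apart. Pfkfb3 and Pfkfb4, which make the activator of phosphofructokinase, were highest on the double mutant at 3.81 and 2.07 and lowest on the MDS array (2.64) and the MDS/ML array (0.50).

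The genes of oxygen sensing moved apart. Hif1a, the oxygen-labile subunit of HIF-1, was at 0.52 on WT, 0.54 and 0.48 on the CD45.1+ arrays, 0.89 on Ezh2Δ/Δ, 0.11 on RUNX1S291fs, 1.35 on the double mutant, 0.93 on the MDS and 1.12 on the MDS/ML array. All 4 Ezh2-deleted arrays lay above the 4 others, which held for 1.01% of genes, and no member lay below in all 4 (1.79%). It had the smallest p of the members for Ezh2 deletion, an effect of 0.72 (SE 0.30), and did not pass (limma adjusted p = 1.00). Egln1, the main prolyl hydroxylase that marks HIF for degradation, was at -1.98 on WT, -1.63 on the CD45.1+ array beside the double mutant, -1.28 on Ezh2Δ/Δ, -2.99 on RUNX1S291fs, -4.18 on the MDS and -2.71 on the MDS/ML array. On the double mutant (-4.67) and the CD45.1+ array beside RUNX1S291fs (-3.41) it was not well above background, so the double mutant was at least 6.46-fold below WT and wild-type arrays were low as well. Egln3, a hydroxylase that HIF induces, ranged from 0.61 on RUNX1S291fs to 2.87 on the CD45.1+ array beside it.

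Of the hypoxia-induced genes, Vegfa, the endothelial growth factor, was at 0.06 on WT, 0.86 and 2.06 on the CD45.1+ arrays, 3.01 on Ezh2Δ/Δ, 1.99 on RUNX1S291fs, 1.98 on the double mutant, -0.40 on the MDS and -1.73 on the MDS/ML array. WT was the lowest of the 6 month 4 arrays, so the single-lesion arrays stood 7.73-fold and 3.81-fold above it, yet wild-type cells beside the double mutant lay 2.00 above it as well. Both moribund arrays lay below all others, with a stage effect of -3.65 (SE 0.89, limma adjusted p = 0.11). Ddit4, an inhibitor of mTORC1 under stress, was the 1 member whose moribund levels lay above all others (10% of genes), at 6.49 and 6.07 against 4.61 to 5.72, with a stage effect of 1.16 (SE 0.51, limma adjusted p = 0.383). Bnip3, a mitophagy receptor, stayed between 3.16 and 3.80.

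Other genes of these pathways gave a mixed picture. Of 24 further genes of glycolysis and gluconeogenesis measured, 4 were higher in the double mutant than in WT and 0 lower (10.6% and 7.9% of all genes), with Tigar, which lowers fructose 2,6-bisphosphate, at 2.32 and Pcx, pyruvate carboxylase, at 2.20. On the MDS array 8 of 22 were lower than in the double mutant and 3 higher (20.3% and 10.6% of all genes). On the MDS/ML array it was 3 of 21 and 2, near the share of all genes (15.2% and 9.77%), with Tigar at -3.25 and -1.97 and the glucose transporter Slc2a6 at -1.87 and -3.35. None of the 20 tested passed for the stage. Of 29 further hypoxia-related genes, 5 were higher and 6 lower on the MDS array, and 5 and 5 on the MDS/ML array, beside the same shares of all genes. In the model 1 of 29 passed: Hif3a, a HIF subunit that can oppose HIF-1, rose by 4.41 (SE 0.61, limma adjusted p = 0.0196) from between -2.85 and -0.68 on the 6 month 4 arrays to 3.40 and 3.59. Against WT, 8 of 29 were higher on RUNX1S291fs (8.57% of all genes) and 5 of 30 on Ezh2Δ/Δ (7.81%), with Bhlhe40, a transcriptional repressor, at 3.66 and 3.06.

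Markers of other cell types and of cycling also differed between the arrays, and not all in the direction of the members. The mean level of 12 neutrophil and granule genes (Elane, Mpo and S100a8 among them) was 6.79 on the double mutant, 1.94 on WT, 4.85 and 2.09 on the CD45.1+ arrays, 4.40 on Ezh2Δ/Δ, 3.55 on RUNX1S291fs, 4.99 on the MDS and -0.96 on the MDS/ML array. All 12 were well above background on each of these arrays except the MDS/ML array, where 9 were. The mean over 8 monocyte and macrophage genes was 2.56 on the double mutant and -0.37 on WT. It was 0.16 on the MDS and -0.49 on the MDS/ML array. On the CD45.1+ arrays it was 2.20 and 0.81, on RUNX1S291fs 1.61 and on Ezh2Δ/Δ -0.64. The mean over 10 mast cell and basophil genes was 2.83 on the double mutant and -2.43 on WT. It was 0.67 on the MDS and -2.28 on the MDS/ML array. On the CD45.1+ arrays it was -0.20 and -0.86, on RUNX1S291fs 1.43 and on Ezh2Δ/Δ -1.47. The mean of 10 megakaryocyte genes was 4.07 and 4.21 on the moribund arrays and at most 1.65 elsewhere, with all 10 well above background on both. Proliferation genes, 16 in number, averaged 4.19 on the double mutant, 3.52 on WT and 2.95 and 2.75 on the moribund arrays. They averaged 4.13 and 3.80 on the CD45.1+ arrays, 3.63 on Ezh2Δ/Δ and 3.18 on RUNX1S291fs. Of 12 stem and progenitor markers 4 fell with the stage (Cd34, Flt3, Ly6a and Procr), 1 of 10 mast cell and basophil genes (Tpsb2) fell and 1 of 10 megakaryocyte genes (Clec1b) rose. Immediate-early genes, which respond fast to stimulation and were 17 in number, averaged 5.80 on RUNX1S291fs, 5.91 on the MDS array, 4.33 and 5.04 on the CD45.1+ arrays and 3.11 to 4.13 on the other 4. All 17 were higher on the MDS array than on the double mutant, with a median difference of 2.55, and 15 of 17 were higher on RUNX1S291fs than on WT. The 8 heat shock genes averaged 5.55 and 6.02 on the CD45.1+ arrays, 5.58 on RUNX1S291fs, 5.21 on the MDS array and 3.84 to 4.51 on the other 4. B cell genes, 10 in number, averaged 2.48 on Ezh2Δ/Δ, 0.14 on the CD45.1+ array beside the double mutant and -2.12 or less on the other 6, and 9 of 9 measured were higher on Ezh2Δ/Δ than on WT. In bulk RNA, fewer cells of a type and less RNA per cell cannot be told apart, and the part of these markers in the members' differences was not tested.

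**Figure D4:**
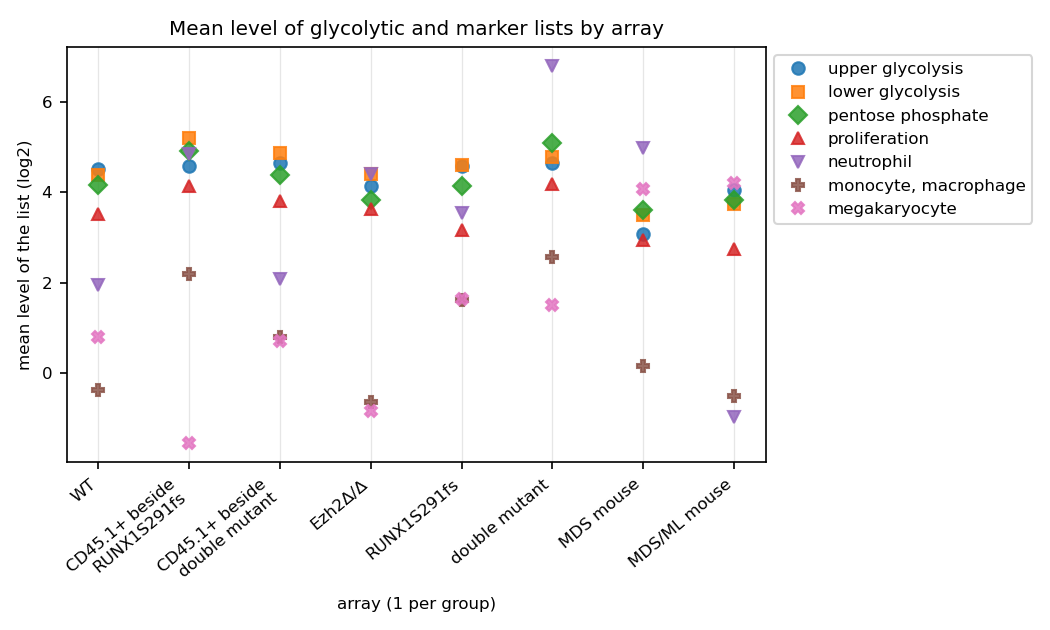
Mean log2 level of upper and lower glycolysis, pentose phosphate genes, proliferation genes and markers of neutrophils, monocytes and macrophages, and megakaryocytes on each of the 8 arrays, 1 point per list and array. Neutrophil markers peak at 6.79 on the double mutant, and megakaryocyte markers are highest on the moribund arrays at 4.07 and 4.21.

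The probes of a member mostly moved alike. Of 19 further probes for 11 members, 14 had the sign of the probe used for the double mutant against WT, 17 for the MDS and 16 for the MDS/ML array against the double mutant. The exceptions lay in Ldha, Hk1, Bnip3 and Tpi1. In none of the 5 comparisons of mutants with WT and of moribund mice with the double mutant did 10 members show a 2-fold difference: Hk1, Pfkl, Pfkm, Eno2, Ldha, Pck2, Pdk3, Slc2a1, Hif1a and Bnip3. For Eno2 this is undecided. Its differences of RUNX1S291fs and the double mutant from WT are bounds, and the moribund arrays could not be compared with the double mutant.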

How the data were processed

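Cy3-labelled RNA of 8 LSK samples was hybridised to 1-colour Agilent arrays of 62976 spots. Per the file headers, the deposited scanner files come from Agilent Feature Extraction and hold background-subtracted processed intensity per spot with background flags. The authors' series table, a linear signal, matched each array's intensity up to 1 factor for 99.8% of probes within 0.01 log2. Its scale is thus the intensity divided by about the 75th percentile, and it was not centred.

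Control and outlier spots were left out, spots of a probe averaged, and log2 intensity set against the array's 75th percentile. Of 55681 probes, 27229 were named through RefSeq accessions (20656 genes, 20639 after outliers were left out), and the brightest probe was used. Values not well above background were raised to the array's lowest value well above it, which gives bounds. Genes well above background on 3 arrays were tested with limma 3.58.1 (R 4.3.3), checked on simulated data. The deposited columns hold no mean signal, so the normexp alternative (offset 50) used the median signal. Nothing in the labels says that same-genotype arrays came from separate cultures or donors beyond the mice named, so p-values measure the spread between these 8 arrays.

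Values on all arrays are written out for members past 2-fold between WT and a mutant or between the double mutant and a moribund array (at most the 6 largest per pair), those at least 1 log2 outside the wild-type range on a mutant array, and the member of smallest p in each term. Gapdh was added after its values were seen. Of other lists, at most the 3 largest per direction of a pair are named. Members and lists were chosen with earlier results of these data known. Alternatives covered background correction, scaling, series table, probe choice, filters, slide, stage term, fold, each array left out and, added later, marrow as a random block.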

Additional observations from a re-analysis of the deposited data

How the results depend on the processing

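No paired analysis was possible because all arrays carried replicate number 1, although both CD45.1+ arrays came from mice of the RUNX1S291fs and double-mutant groups. A fit with that marrow as a random block, chosen after seeing the data, estimated a correlation of -0.774 from the 2 pairs of arrays. Fbp1, Ldhb and Hk3 were the members that passed for the stage in it (354 genes passed, against 250 in the main fit). A correlation from 2 pairs is poorly determined, and a negative value is unlikely for cells of shared marrow. That fit, 1 of the 17 alternatives, thus adds no weight to these calls. Fbp1, Ldhb and Hk3 have 1 probe each, so the mean over probes kept their values. The series table holds the same intensity up to 1 factor. Leaving out Ezh2Δ/Δ or leaving out RUNX1S291fs gave the same stage effects. The tallies of 16, 11 and 8 of 17 for Fbp1, Ldhb and Hk3 are therefore not counts of independent checks. Of 34 members, 3 passed for the moribund stage, from 0 to 3 when 1 array was left out (Fbp1, Hk3 and Hk2 without the MDS array, Fbp1 and Ldhb without the MDS/ML array) and 1 with no filter on dim genes, which tested more genes. Over all genes the stage count of 250 became 0 without the double mutant, 70 without WT, 81 without the CD45.1+ array beside the double mutant, 157 without the MDS array, 381 without the MDS/ML array, 75 with slide as a block, 152 when a gene had to exceed background on every array and 150 with no filter. The RUNX1S291fs count of 2 ranged from 0 to 10. With 1.5-fold in place of 2-fold, 3 members were higher and 4 lower in Ezh2Δ/Δ than WT, 7 and 5 in RUNX1S291fs, and 17 were higher in the double mutant. No share of all genes at 1.5-fold is given, so these counts cannot be read as a result about the members. With normexp, 1 member was lower in RUNX1S291fs than WT. With the filter on every array, 1 of 32 members was lower in all carriers (3.95% of genes). The cause of these changes was not tested. Quantile normalization moved the median of all genes by -0.11 for the double mutant against WT and by 0.11 for both moribund arrays against it. Over all results and alternatives, 774 values kept their call, 95 moved and 16 lost it, and no called value changed sign. Signal over background limits Eno2, Egln1 and Fbp2, and 1 array a group limits every comparison.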

Other observations

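Pathways that branch from glycolysis were not among the 35 genes. Pentose phosphate genes make NADPH and ribose. Of 8, 4 were at least 2-fold higher in the double mutant than in WT and 0 lower (10.6% and 7.9% of all genes). Pgd was at 1.72, G6pdx, the entry enzyme, at 1.39 and Rpia at 1.38. The median difference was 0.82. In wild-type CD45.1+ cells beside RUNX1S291fs 3 of 8 were higher than in WT (11.3% of all genes), with a median of 0.74. In those beside the double mutant 0 of 8 were (4.58%), with a median of 0.26. Against the latter cells 2 of 8 were higher in the double mutant (9.78%) and 0 lower. On the MDS array 7 of 8 were lower than in the double mutant (20.3% of all genes) and on the MDS/ML array 5 of 8 (15.2%), with Pgd at -2.02 and -1.70 and G6pdx at -1.88 and -1.73. None of the 8 passed for the moribund stage (limma, Benjamini-Hochberg over all genes), and the median stage effect was -0.99.

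Of 25 genes of pyruvate entry and the citric acid cycle, 9 were at least 2-fold lower on the MDS array than in the double mutant, against 20.3% of all genes. On the MDS/ML array 2 of 25 were, below the 15.2% of all genes. Pdhx, a part of pyruvate dehydrogenase, was at -1.81 and Cs, citrate synthase, at -1.59 on the MDS array, and Mpc1, a subunit of the mitochondrial pyruvate carrier, at -1.46 there and -1.68 on the MDS/ML array. The stage effect was negative for 24 of 25 with a median of -0.54, and none passed. These comparisons share the double-mutant array with those of the report.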
